A study of Mus musculus with 15 samples.

Results

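Trem2, the Fc receptors and their ITAM signaling chain were followed through 10 genes: the receptors Trem2, Fcgr1, Fcgr3, Fcgr2b and Cd33, the adaptors Tyrobp and Fcer1g, the kinase Syk, and the effectors Plcg2 and Vav1. They were taken by name from the 29659 genes of each library, and all 10 passed the filter on low values that left 15804 genes for testing. Expression had been measured by bulk RNA-seq of thalamus in 15 libraries from mice aged 4.5 months. All 4 genotypes are given as homozygous for human APOE4 (APOE4+/+) in place of mouse Apoe, although mouse Apoe was high in ELKO replicate 1. The EL group of 3 libraries kept Lilrb4a (Lilrb4a+/+), and the ELKO group of 3 had lost it in all tissues (Lilrb4a-/-). The 5EL group of 5 (Lilrb4a+/+) and the 5ELKO group of 4 (Lilrb4a-/-) carried 5xFAD in addition, transgenes expressed in neurons under the Thy1 promoter that lead to amyloid plaques. The tissue is whole thalamus, so a microglial transcript is a small part of each library, and fewer microglia cannot be told apart from less RNA per microglial cell.

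An ITAM is a pair of tyrosines in the tail of an adaptor that Src-family kinases phosphorylate once a receptor is engaged, and Syk then docks there and activates Plcg2 and Vav1. In brain these genes are expressed mainly by microglia, where Trem2, a receptor for lipids and lipoproteins such as ApoE, signals through Tyrobp (DAP12), and the IgG receptors Fcgr1 and Fcgr3 signal through Fcer1g (the FcR gamma chain). Inhibitory receptors with an ITIM, among them Fcgr2b and Lilrb4a, recruit the phosphatases encoded by Ptpn6 and Inpp5d and oppose this chain.

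Promoters of the members were searched for a short motif. Whether it has a part in how several members followed each other across libraries was not tested. RefSeq windows of mouse build GRCm38.p6 matched 9 of the 10 members, and 250 bases before each annotated start were searched on both strands for GAGGAA, the core of sites bound by PU.1 (Spi1), the transcription factor that defines macrophages and microglia. It was present for 6 of these 9 genes (Trem2, Fcgr1, Fcgr3, Cd33, Syk and Vav1) and absent for Fcgr2b, Fcer1g and Plcg2. Of the 11 windows of the 9 genes 7 held it, whereas 23.3% of all 32851 windows did. Both Fcgr3 windows hold the same site, which is counted in each, and no test of these shares was made. A match is a run of letters and not a measured binding site. The 4 promoters with the motif within 55 bases of the start and outside every GENCODE exon are shown, 5′ to 3′ on the strand of the gene, with the motif in capitals. It lies 40 bases before the start in Trem2 (chr17:48346151-48346400, plus strand), 55 in Fcgr1 (chr3:96293970-96294219, minus strand), 6 in Fcgr3 (chr1:171059404-171059626, minus strand) and 11 in Vav1 (chr17:57278850-57279099, plus strand). The Fcgr3 stretch lies in an intron of longer isoforms of this gene.
Trem2: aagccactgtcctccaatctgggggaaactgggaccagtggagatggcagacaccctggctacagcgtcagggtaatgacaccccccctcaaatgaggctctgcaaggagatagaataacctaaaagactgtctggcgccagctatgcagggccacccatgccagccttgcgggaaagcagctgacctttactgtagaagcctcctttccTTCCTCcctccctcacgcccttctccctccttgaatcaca
Fcgr1: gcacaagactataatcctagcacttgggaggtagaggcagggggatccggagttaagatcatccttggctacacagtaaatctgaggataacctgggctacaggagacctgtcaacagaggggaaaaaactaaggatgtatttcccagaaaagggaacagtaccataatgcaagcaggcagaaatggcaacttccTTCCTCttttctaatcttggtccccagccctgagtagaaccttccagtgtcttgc
Fcgr3: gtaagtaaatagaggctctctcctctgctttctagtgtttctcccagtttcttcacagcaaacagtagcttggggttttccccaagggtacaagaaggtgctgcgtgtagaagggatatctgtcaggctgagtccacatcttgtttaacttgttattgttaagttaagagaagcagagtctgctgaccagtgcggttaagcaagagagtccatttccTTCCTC
Vav1: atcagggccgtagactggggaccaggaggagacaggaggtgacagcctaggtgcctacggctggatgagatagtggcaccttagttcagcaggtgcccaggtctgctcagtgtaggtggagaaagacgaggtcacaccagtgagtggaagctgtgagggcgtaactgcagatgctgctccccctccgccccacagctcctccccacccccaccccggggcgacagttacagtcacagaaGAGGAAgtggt

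Trem2, Fcgr1 and Fcgr3 carry it as TTCCTC, the opposite strand, and in these 3 sequences it directly follows ttcc. Vav1 carries it on the coding strand. The expression of these 4 genes did not follow 1 pattern: Trem2 was higher in 5xFAD libraries in both Lilrb4a genotypes by the unadjusted p, Fcgr1 was at nearly the same mean level in all 4 groups, and Fcgr3 and Vav1 lay between them.

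Values are the deposited log2 expression values, and differences between groups are differences of mean log2 values from limma, with adjustment over all genes tested. No member passed an adjusted p under 0.05 in any of the 6 comparisons. Of all genes tested, 0% passed it in 5EL against EL, 0% in 5ELKO against ELKO, 0% in the mean of these 2 5xFAD differences, 0.0191% in 5ELKO against 5EL, 0% in ELKO against EL and 0% in the interaction. The values are therefore described by their unadjusted p, by the study's exploratory threshold (unadjusted p under 0.05 and a fold change over 1.2) and by exact permutation tests over libraries. Lilrb4a checked the labels at a very low level: it was 2.33 or less in the 7 libraries without the gene and 2.34 to 2.66 in the other 8. Several libraries stood apart in genes of other tissues, and ELKO replicate 1 stood apart in mouse Apoe. By the stated genotype human APOE4 replaces mouse Apoe, and whether that library has this genotype was not tested. Choroid plexus genes averaged 8.27 in 5EL replicate 1 and 8.66 in ELKO replicate 2 against 5.78 to 6.43 elsewhere, hepatocyte genes averaged 5.40 in EL replicate 1 and 4.85 to 5.31 in 5ELKO against 4.44 to 4.68 elsewhere, and mouse Apoe was 10.9 in ELKO replicate 1 against at most 6.37 elsewhere. The part of these differences in the results was not tested. Values without 4 libraries (5EL replicate 1, EL replicate 1 and ELKO replicates 1 and 2) are given beside the results. The 5ELKO libraries, with their higher hepatocyte genes, were kept in those fits. Markers of monocytes and neutrophils, T and NK cells and mast cells were at log2 values of 2.28 or less in all libraries; none of their genes passed the filter, and B cell genes other than Ighm were at 1.33 or less. The thalamic neuron genes averaged 12.2 to 12.6 and the homeostatic microglia genes 8.21 to 8.57.

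**Figure D1:**
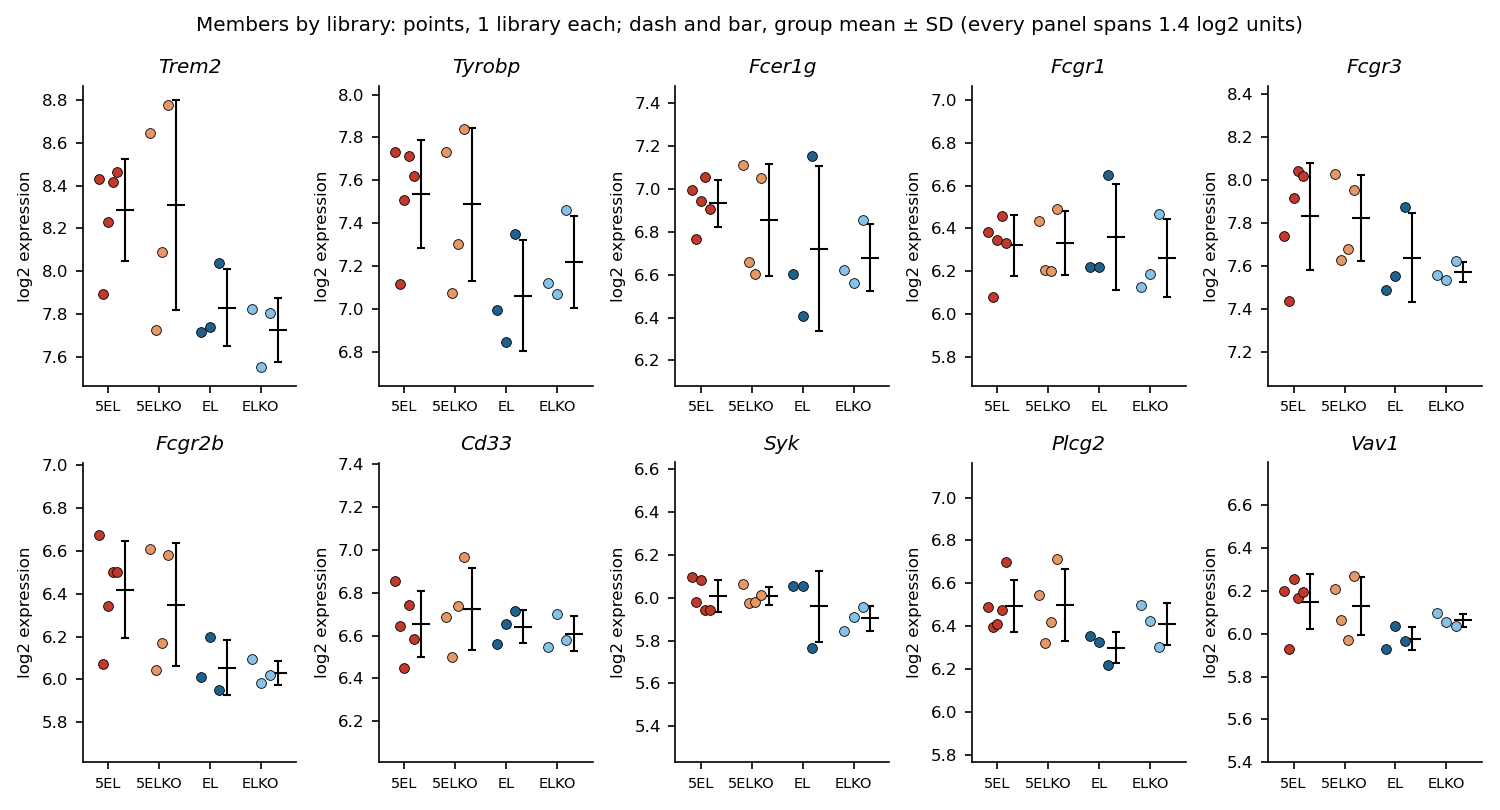
Log2 expression of the 10 members in the 15 libraries, with genotypes along the x axis and 3 to 5 libraries in each; points are libraries, the dash and bar are the group mean ± SD, and every panel spans the same height. Trem2, Tyrobp and Fcgr2b have higher means in both 5xFAD groups, with 5EL replicate 2 and 5ELKO replicates 2 and 3 low among the 5xFAD libraries, while Fcgr1, Cd33 and Syk show group means that lie close together.

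Trem2, the lipid receptor (chr17:48346401-48354147, plus strand, 5 exon blocks), was highest in the 5xFAD libraries. In 5EL replicates 1 to 5 its log2 values were 8.43, 7.89, 8.23, 8.42 and 8.47, and in 5ELKO replicates 1 to 4 they were 8.64, 7.72, 8.09 and 8.78. EL replicates 1 to 3 were at 7.71, 7.74 and 8.04 and ELKO replicates 1 to 3 at 7.82, 7.55 and 7.80. Of the 9 5xFAD libraries 7 lay above every library without 5xFAD, and the exceptions were 5EL replicate 2 and 5ELKO replicate 2. The group means ran in the order 5ELKO, 5EL, EL and ELKO (8.31, 8.29, 7.83 and 7.73), and no neighbours in this order differed beyond their spread (smallest exact permutation p = 0.0536, 5EL against EL). Trem2 was 0.46 ± 0.20 (SE) higher in 5EL than in EL (limma adjusted p = 0.63) and 0.58 ± 0.21 higher in 5ELKO than in ELKO (adjusted p = 0.999), both at an unadjusted p under 0.05. The mean of both differences was 0.52 (95% confidence interval 0.22 to 0.82), a 1.43-fold higher level, with an exact permutation p of 0.00816 within Lilrb4a genotypes (0.244 adjusted over 50 member tests). This test takes the 6 libraries without 5xFAD as independent, although EL and ELKO replicates of the same number were correlated in their deviations from group means. With the replicate number as a block Trem2 was 0.31 higher in 5EL than in EL, with an unadjusted p of 0.0641, and the mean of both differences was 0.39, with an unadjusted p under 0.05. That block joined same-numbered libraries of all 4 groups, while those of the other pairs of groups did not all deviate together. It is therefore not a correction for a known pairing, and 5EL replicate 5 had no partner in it. Leaving out any of 5EL replicates 1, 4 and 5 or EL replicates 1 and 2 raised the unadjusted p of 5EL against EL to between 0.0647 and 0.103 (differences 0.40 to 0.42), and leaving out ELKO replicate 2 raised that of 5ELKO against ELKO to 0.0545 (0.43). In the mean difference the value stayed between 0.44 and 0.62 with an unadjusted p under 0.05 in 15 fits that each left out 1 library.

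Lilrb4a deletion was not accompanied by a detectable difference in Trem2. With 5xFAD, 5ELKO exceeded 5EL by 0.02 (95% confidence interval -0.39 to 0.44, adjusted p = 0.999), and without 5xFAD, ELKO minus EL was -0.10 (-0.57 to 0.37). The first interval does not reach the mean 5xFAD difference of Trem2 in either direction, and the second reaches that size as a lower level only. The spread within 5ELKO was wide, since replicates 1 and 4 were the 2 highest Trem2 libraries of the series and replicate 2 was at the level of EL.

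Tyrobp, the DAP12 adaptor of Trem2 (chr7:30413760-30417585, plus strand, 6 exon blocks), resembled its receptor in 5EL and EL. Its log2 values were 7.73, 7.11, 7.51, 7.71 and 7.62 in 5EL and 6.99, 6.84 and 7.35 in EL. In 5ELKO they were 7.73, 7.08, 7.30 and 7.84, and in ELKO 7.12, 7.07 and 7.46. In 5EL 4 of 5 libraries lay above all EL libraries, whereas the 5ELKO and ELKO ranges overlapped, with 2 of 4 5ELKO libraries above all of ELKO. Tyrobp was 0.48 ± 0.18 higher in 5EL than in EL (limma adjusted p = 0.63, unadjusted p under 0.05), with an unadjusted p of 0.0542 without EL replicate 1 and 0.0960 without EL replicate 2. In 5ELKO against ELKO the difference was 0.27 ± 0.19 (adjusted p = 0.999) and the mean of both was 0.37 ± 0.13 (adjusted p = 0.693; exact permutation p = 0.0291). The difference between the 2 differences was -0.21 with a 95% confidence interval of -0.76 to 0.35, so they could not be told apart. 5ELKO minus 5EL was -0.05 (-0.40 to 0.30).

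The log2 values of receptor and adaptor were also compared within each library. Trem2 minus Tyrobp was 0.75 ± 0.06 (SD, n = 5) in 5EL, 0.77 ± 0.11 in EL, 0.82 ± 0.13 in 5ELKO and 0.51 ± 0.18 in ELKO. No difference between ELKO and 5ELKO beyond the spread was detected (exact permutation p = 0.0857, 0.5 adjusted over 20 ratio tests). These ratios were chosen after the values of single genes had been seen. Levels of different genes compare only per exon length: Tyrobp, with 0.667 kb of exons, had the highest length-corrected level of the 10 members (log2 7.95 per kb), and Trem2, with 4.95 kb in GENCODE, was at 5.78.

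Fcer1g, the signaling chain shared by the activating Fc receptors (chr1:171229572-171234365, minus strand, 5 exon blocks), overlapped between all groups. It was at 6.995, 6.77, 6.94, 7.06 and 6.91 in 5EL and at 6.61, 6.41 and 7.15 in EL. In 5ELKO it was at 7.11, 6.66, 6.60 and 7.05, and in ELKO at 6.62, 6.56 and 6.86. The highest value of all 15 libraries was in EL replicate 3, which lacks the amyloid transgenes. Fcer1g was 0.21 ± 0.15 higher in 5EL than in EL (adjusted p = 0.654), and 0.43 higher, at an unadjusted p under 0.05, without that library. That fit leaves out the value that most opposes the difference, so its p is no test of it. In 5ELKO against ELKO the difference was 0.18 ± 0.16 (adjusted p = 0.999), and 5ELKO minus 5EL was -0.08 (95% confidence interval -0.31 to 0.16).

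Fcgr1, the high-affinity IgG receptor (chr3:96282909-96293969, minus strand, 6 exon blocks), stayed near 6.3 in all groups. Its values were 6.39, 6.08, 6.35, 6.46 and 6.33 in 5EL, 6.43, 6.21, 6.20 and 6.49 in 5ELKO, 6.22, 6.22 and 6.65 in EL and 6.13, 6.19 and 6.47 in ELKO. As for Fcer1g, the highest library was EL replicate 3, and ELKO replicate 3 was the highest of ELKO. The 5EL minus EL difference was -0.04 (95% confidence interval -0.29 to 0.21) and 5ELKO minus ELKO was 0.07 (-0.19 to 0.33). Among the members it had the smallest mean 5xFAD difference, 0.02 ± 0.08, and without the 4 libraries that stood apart that value was -0.13.

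Fcgr3, the low-affinity activating receptor (chr1:171051174-171064935, minus strand, 7 exon blocks), was at 7.74, 7.44, 7.92, 8.04 and 8.02 in 5EL and at 8.03, 7.63, 7.68 and 7.95 in 5ELKO. EL libraries were at 7.49, 7.55 and 7.87 and ELKO libraries at 7.56, 7.54 and 7.62. The 5ELKO and ELKO groups did not overlap, by a margin of 7.63 against 7.62. Without overlap and in the higher direction were 1.78% of all genes in this comparison and 1.68% in 5EL against EL, where Plcg2 was the member without overlap. Fcgr3 was 0.25 ± 0.14 higher in 5ELKO than in ELKO (adjusted p = 0.999) and 0.19 ± 0.13 higher in 5EL than in EL (adjusted p = 0.65). The mean of both was 0.22 ± 0.10 (adjusted p = 0.693; exact permutation p = 0.0515), and the unadjusted limma p, under 0.05 with all libraries, rose over it in 9 of 15 fits that left out 1 library.

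Fcgr2b, the inhibitory IgG receptor with an ITIM in place of an ITAM chain (chr1:170958617-170976547, minus strand, 10 exon blocks), had its higher and lower values in much the same libraries as Trem2. It was at 6.67, 6.07, 6.34, 6.50 and 6.50 in 5EL and 6.01, 6.20 and 5.95 in EL, with 4 of 5 5EL libraries above all EL libraries. In 5ELKO it was at 6.61, 6.04, 6.17 and 6.58 and in ELKO at 6.09, 5.98 and 6.02, with 3 of 4 above. The 3 low 5xFAD libraries were again 5EL replicate 2 and 5ELKO replicates 2 and 3. Fcgr2b was 0.36 ± 0.14 higher in 5EL than in EL (limma adjusted p = 0.63) and 0.32 ± 0.14 higher in 5ELKO than in ELKO (adjusted p = 0.999), both at an unadjusted p under 0.05. The mean of both was 0.34 (95% confidence interval 0.13 to 0.55, adjusted p = 0.693), a 1.27-fold higher level, with an exact permutation p of 0.0122. Without EL replicate 1 or 3 the unadjusted p of 5EL against EL was 0.0516 and 0.0677, and in 5ELKO against ELKO it was over 0.05 in 5 of 7 fits with 1 library left out. Fcgr2b and Fcgr3 are neighbouring paralogs: 94 of the 1733 75-base stretches of Fcgr3 transcripts (5.42%) also occur in Fcgr2b, so the counting could shift reads between them. In addition, 155 exon bases of Fcgr2b overlap the antisense gene Gm38204, whose reads cannot be told apart because counting ignored strand.

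No difference between genotypes beyond the spread was detected in the balance of inhibitory to activating Fc receptor transcripts. Fcgr2b minus Fcgr3 was -1.41 ± 0.21 in 5EL, -1.47 ± 0.09 in 5ELKO, -1.58 ± 0.30 in EL and -1.54 ± 0.07 in ELKO, and the mean 5xFAD difference of this ratio was 0.12 (exact permutation p = 0.242). For Fcgr2b minus Fcer1g that difference was 0.15 (p = 0.254 in the same exact test). Fcgr4, the remaining mouse IgG receptor of this family, was not tested, since it lay between 1.45 and 1.60 in all 15 libraries.

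Cd33, a sialic-acid-binding receptor of the Siglec family (chr7:43524216-43544428, minus strand, 9 exon blocks), did not share the pattern of Trem2. It was at 6.85, 6.64, 6.45, 6.74 and 6.58 in 5EL, 6.69, 6.50, 6.74 and 6.97 in 5ELKO, 6.56, 6.65 and 6.71 in EL and 6.55, 6.70 and 6.58 in ELKO. The groups overlapped throughout, and the library with the lowest value of all was 5EL replicate 3. The difference of 5EL and EL was 0.01 (95% confidence interval -0.20 to 0.23), that of 5ELKO and ELKO 0.11 (-0.11 to 0.33), and that of 5ELKO and 5EL 0.07 (-0.15 to 0.28). Cd33 minus Trem2 averaged -1.63 in 5EL, -1.59 in 5ELKO, -1.19 in EL and -1.12 in ELKO. The mean difference of this ratio was -0.46 (exact permutation p = 0.00714, 0.143 adjusted over 20 ratio tests).

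Syk, the kinase that docks on phosphorylated ITAMs (chr13:52583173-52648792, plus strand, 14 exon blocks), had the lowest level per exon length of the 10 members (log2 2.75 per kb) and the smallest spread within groups. Its values were 6.10, 5.98, 6.08, 5.94 and 5.94 in 5EL, 6.06, 5.97, 5.98 and 6.01 in 5ELKO, 6.06, 6.05 and 5.77 in EL and 5.84, 5.91 and 5.96 in ELKO. In 5ELKO against ELKO the groups did not overlap and the exact permutation p was 0.0286, the smallest this design can give (0.244 adjusted), but the difference was 0.10 ± 0.07 and the limma adjusted p 0.999. The 5EL and EL groups overlapped, with a difference of 0.05 (95% confidence interval -0.10 to 0.20). 5ELKO minus 5EL was -0.00022 (-0.12 to 0.12), and ELKO minus EL was -0.06 (-0.22 to 0.11). Without EL replicate 3, which held the lowest Syk value of the series, ELKO minus EL was -0.15, at an unadjusted p under 0.05. That fit leaves out the value that most opposes the difference, so its p is no test of it.

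Plcg2, the phospholipase downstream of Syk (chr8:117498291-117635142, plus strand, 33 exon blocks), separated 5EL from EL. The 5EL libraries were at 6.49, 6.40, 6.41, 6.48 and 6.70 and the EL libraries at 6.36, 6.32 and 6.22, without overlap. In 5ELKO it was at 6.54, 6.32, 6.42 and 6.71 and in ELKO at 6.50, 6.42 and 6.30, and these ranges overlapped. The difference was 0.19 ± 0.09 in 5EL against EL (adjusted p = 0.63; exact permutation p = 0.0357, 0.244 adjusted) and 0.09 ± 0.09 in 5ELKO against ELKO (adjusted p = 0.999). The interaction was -0.10 with a 95% confidence interval of -0.38 to 0.17.

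Vav1, the guanine nucleotide exchange factor that links Syk to Rac (chr17:57279100-57328031, plus strand, 27 exon blocks), was at 6.20, 5.93, 6.26, 6.17 and 6.20 in 5EL and 5.93, 6.04 and 5.96 in EL. In 5ELKO it was at 6.21, 6.07, 5.97 and 6.27 and in ELKO at 6.10, 6.06 and 6.04. 5EL replicate 2 was the lowest of all 15 libraries, and the other 4 5EL libraries lay above EL. Vav1 was 0.17 ± 0.08 higher in 5EL than in EL (adjusted p = 0.63; exact permutation p = 0.125) and 0.07 ± 0.08 higher in 5ELKO than in ELKO (adjusted p = 0.999). The unadjusted p of the first difference was under 0.05 in 2 of 8 fits that left out 1 library, and for Plcg2 in 3 of 8. For the mean 5xFAD difference of Plcg2, 0.14 ± 0.06, it was under 0.05 in 6 of 15 such fits.

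**Figure D2:**
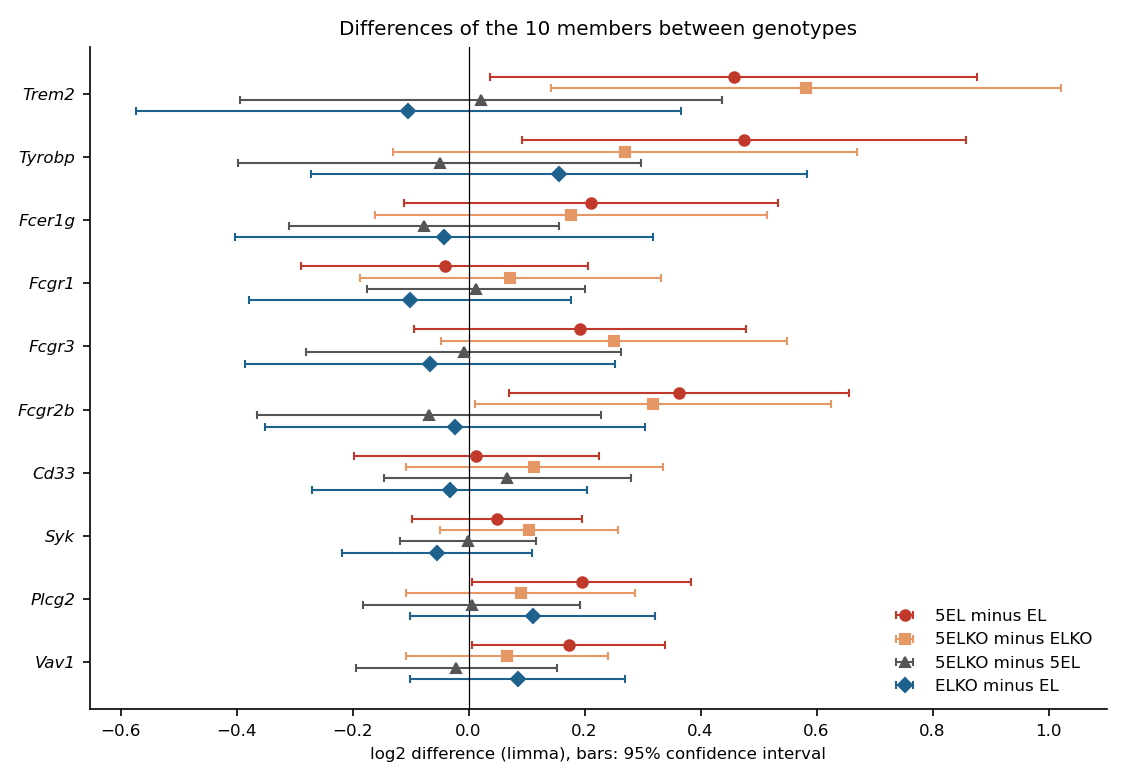
Differences of mean log2 expression of the 10 members in 4 comparisons (x axis, log2 units; symbols, limma estimates; bars, 95% confidence intervals; 3 to 5 libraries a group). The intervals of Trem2 and Fcgr2b lie above 0 in both 5xFAD comparisons, those of Tyrobp, Plcg2 and Vav1 in 5EL minus EL, and all intervals of the Lilrb4a deletion include 0.

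By the study's threshold 3 members were higher in 5EL than in EL (Trem2, Tyrobp and Fcgr2b), where 1.53% of all genes passed it in this direction, and 5 by the unadjusted p alone, against 3.82% of all genes. In 5ELKO against ELKO the threshold was passed by 2 members (Trem2 and Fcgr2b) and by 0.354% of all genes, and the unadjusted p by the same 2 and by 1.48%. The mean of both 5xFAD differences put 3 members over the threshold (Trem2, Tyrobp and Fcgr2b) against 0.652% of all genes, and 5 under the unadjusted p, with Fcgr3 and Plcg2 added, against 3.56%. No member was lower by either rule in these comparisons. The median difference of the 10 members was 0.19 in 5EL against EL, 0.15 in 5ELKO against ELKO and 0.17 in the mean, beside medians over all genes of 0.00063, -0.00049 and -0.00055. The 2 comparisons share no libraries, but Lilrb4a genotype and the libraries that stood apart are nested in them. Without those 4 libraries, leaving 4 5EL, 4 5ELKO, 2 EL and 1 ELKO, 0 members were under an unadjusted p of 0.05 in either comparison and 2 in the mean (Fcgr2b at 0.30 and Plcg2 at 0.21), while Trem2 was at 0.43 (unadjusted p of 0.0545) and Tyrobp at 0.21 (0.267). The single ELKO library is assumed there to vary like the other groups.

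In the Lilrb4a comparisons and in the interaction, limma called 0 members at an adjusted p under 0.05, and 0 at an unadjusted p under 0.05. The unadjusted p was passed by 2.49% of all genes in 5ELKO against 5EL, 2.35% in ELKO against EL and 2.73% in the interaction. Exact permutation tests called 0 members in both deletion comparisons, and with 3 libraries against 3 the smallest p possible is 0.1. The median member difference was -0.0043 in 5ELKO against 5EL and -0.04 in ELKO against EL.

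Microglial genes moved with the members. The mean of 12 pan-microglia genes (among them Csf1r, Aif1, Spi1, Ctss and C1qa) was 8.06 to 8.37 in 5EL, 7.95 to 8.42 in 5ELKO, 7.95 to 8.04 in EL and 7.93 to 8.05 in ELKO. All 12 had a positive mean 5xFAD difference, 11 of 12 at an unadjusted p under 0.05, beside 3.56% of all genes in the higher direction. The low 5xFAD libraries of Trem2, Tyrobp and Fcgr2b were also low in this list: 5EL replicate 2 was at 8.06, and 5ELKO replicates 2 and 3 at 7.95 and 8.06. The 10 homeostatic microglia genes (P2ry12, Tmem119 and others) ranged from 8.32 to 8.50 in 5EL and from 8.26 to 8.34 in EL, a difference of 0.10 (exact permutation p = 0.107), and the difference was 0.13 in 5ELKO against ELKO (p = 0.171 in the same exact test). All 10 had a positive mean 5xFAD difference, 4 of 10 at an unadjusted p under 0.05 (beside the same 3.56% of all genes), with a median of 0.11. Of 18 other genes of disease-associated microglia 13 were higher and 1 was lower in the mean 5xFAD difference by the unadjusted p, beside 3.56% and 3.01% of all genes. The mean of this list ran from 7.99 to 8.36 in 5EL and from 7.89 to 7.91 in EL. Of 5 border macrophage genes tested 0 were higher or lower by the same rule. The mean of the border macrophage list was 4.06 to 4.30 in 5EL, 3.94 to 4.12 in 5ELKO, 4.06 to 4.12 in EL and 4.02 to 4.19 in ELKO. In 5ELKO against 5EL 3 of the 5 border macrophage genes tested (Mrc1, -0.26, F13a1, -0.22, and Cd163, -0.16) were lower by the unadjusted p, beside 0.959% of all genes in the lower direction. Genes of thalamic neurons also differed in 5EL against EL: 4 of 8 were lower by the unadjusted p (Prkcd, -0.52, Lef1, -0.42, Rora, -0.28, and Ntng1, -0.19), beside 3.88% of all genes, with a median of -0.18. Calb2 went the other way: it was 0.65 ± 0.36 (SE) higher in 5EL than in EL and was not called. It was the only 1 of the 8 with a positive difference, and that difference was the largest in size. In 5ELKO against ELKO 0 of 8 were lower by the same rule, with a median of -0.03. The part of the neuronal genes in the member differences was not tested.

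With the pan-microglia mean as a covariate the mean 5xFAD difference of Trem2 was 0.07, that of Fcgr2b 0.06 and that of Tyrobp -0.01. With the homeostatic mean they were 0.19, 0.15 and 0.05, and none of these 6 values was at an unadjusted p under 0.05. Relative to the homeostatic list within each library, Trem2 was 0.35 higher in 5EL than in EL (exact permutation p = 0.0714) and 0.45 higher in 5ELKO than in ELKO (p = 0.143), Tyrobp was 0.37 higher in the first (p = 0.0536), and Fcgr1 was 0.15 lower (p = 0.25), all by the same exact test. The smallest p among these 30 tests was 0.0536, or 0.804 adjusted over them. Relative to the pan-microglia list, Fcgr1 (-0.29, p = 0.0179) and Cd33 (-0.23, p = 0.0357) were lower in 5EL than in EL by the same exact test. Both were at 0.514 adjusted over the 30 tests with that list, and no other of those tests was under 0.05.

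**Figure D3:**
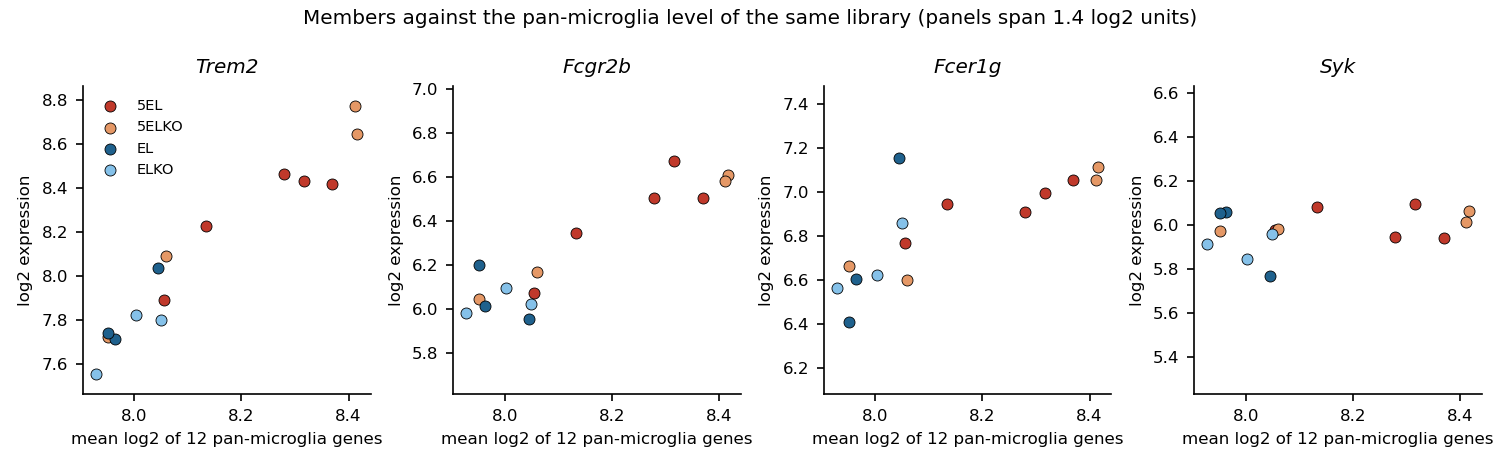
Log2 expression of Trem2, Fcgr2b, Fcer1g and Syk (y axes) against the mean log2 expression of 12 pan-microglia genes in the same library (x axes); points are the 15 libraries coloured by genotype. Trem2 and Fcgr2b increase along the pan-microglia level, Fcer1g does so apart from EL replicate 3 at 7.15, and Syk stays between 5.77 and 6.10.

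Across the 15 libraries the members were related to different degrees, described here by Pearson's r without a test, since libraries share genotypes and differ in their microglial level. Trem2 and Tyrobp had an r of 0.91, and 0.92 in deviations from group means, which remove genotype differences. Trem2 and Fcgr2b had 0.90 and 0.83. A second close set was Fcgr1 with Fcer1g (0.83 and 0.92) and with Tyrobp (0.69 and 0.91), and Tyrobp with Fcer1g (0.86 and 0.87). Fcgr2b had 0.56 and 0.39 with Fcer1g and 0.35 and 0.45 with Fcgr1, but 0.81 and 0.71 with Tyrobp. Syk stood aside: its median r with the other 9 members was 0.18, and -0.07 within groups, while the pairs without Syk had medians of 0.70 and 0.61.

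**Figure D4:**
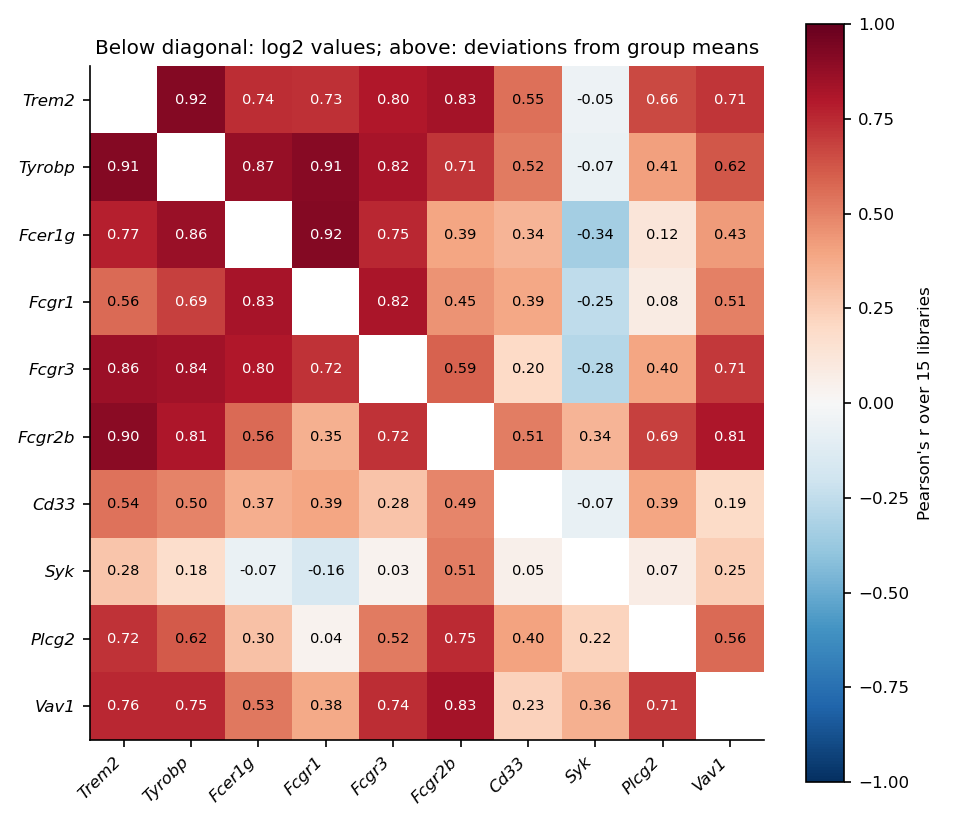
Pearson's r between the 10 members over 15 libraries, from log2 values below the diagonal and from deviations from group means above it. Trem2 and Tyrobp (0.91 and 0.92) and Fcgr1 and Fcer1g (0.83 and 0.92) have the highest values above the diagonal, and the row and column of Syk are pale.

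Among the other 15794 tested genes, those whose values were most like Trem2 were Ctss (r = 0.97), Cd68 (0.96) and Laptm5 (0.96), and within groups Ctss (0.97), C1qa (0.96) and Cd68 (0.95), all lysosomal, complement or leukocyte genes of microglia. For Fcgr2b they were Laptm5 (0.97), Cst7 (0.97) and Mpeg1 (0.95), and within groups Laptm5 (0.96), Cst7 (0.95) and Ctsd (0.93). For Fcer1g they were Slamf9 (0.91), B2m (0.86) and Gpr34 (0.84), and within groups Gfer (0.96), Adgrg5 (0.92) and Slamf9 (0.92). Syk was most like C030005K06Rik (0.89), Cpxm1 (0.85) and Abcb4 (0.81), and Cd33 most like Lrmp (0.85), Zfp710 (0.82) and Il1rl2 (0.80). Within groups Syk was closest to Cpxm1 (0.90), C030005K06Rik (0.86) and Aldh3b2 (0.85), and Cd33 to Cyp26b1 (0.87), Csf3r (0.86) and 9330160F10Rik (0.85). The neighbours of Trem2 and Fcgr2b include genes of the pan-microglia list and of disease-associated microglia, and those of Syk and Cd33 do not.

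The wider pathway was taken as a list of 92 further receptors, adaptors, kinases, scaffolds and inhibitors, of which 88 were in the files and 59 passed the filter. None passed an adjusted p under 0.05. In the mean 5xFAD difference 11 of 59 were higher and 0 lower at an unadjusted p under 0.05, beside 3.56% of all genes in the higher direction, and the median difference was 0.05. Of 5 tested genes that were listed as activating receptors, 2 were under an unadjusted p of 0.05. These were Clec7a (dectin-1, 0.48 ± 0.11) and Fcrls (an Fc receptor-like gene of microglia, 0.44 ± 0.13), both with a limma adjusted p of 0.693. Whether Fcrls signals as an activating receptor was not tested. Clec7a lay at 4.90 to 5.47 in 5EL, 4.64 to 5.45 in 5ELKO, 4.61 to 4.65 in EL and 4.60 to 4.81 in ELKO. Oscar, a collagen receptor that pairs with Fcer1g, was lower in 5EL than in EL (-0.15) and higher in 5ELKO than in 5EL (0.13), with adjusted p of 0.63 and 0.999.

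Some genes of the inhibitory side were higher as well. Of 7 inhibitory receptors tested 1 was higher in the mean 5xFAD difference by the unadjusted p, with a median of 0.05. Of 11 phosphatases and other inhibitors 3 were, with a median of 0.10, beside 3.56% of all genes in the higher direction. Inpp5d, which encodes the phosphatase SHIP1, was at 7.61 to 7.90 in 5EL, 7.52 to 7.90 in 5ELKO, 7.37 to 7.56 in EL and 7.37 to 7.61 in ELKO, a mean 5xFAD difference of 0.25 ± 0.07 (adjusted p = 0.693). Ptpn6, which encodes SHP-1, was 0.22 ± 0.06 higher (adjusted p = 0.693), and was under an unadjusted p of 0.05 in both Lilrb4a genotypes. Ubash3b (0.51 ± 0.21), a phosphatase of the Syk pathway, and the inhibitory receptor Siglecf (0.13 ± 0.04) were also higher by the unadjusted p. Siglech, a microglial Siglec that was listed with the activating receptors and not the inhibitory ones, had group means of 7.55 to 7.69 and was not called. Ptpn11, which encodes SHP-2 and is expressed in many cell types, was at 12.4 to 12.7 in all groups and was not under an unadjusted p of 0.05 in any comparison.

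Of 15 kinases tested 1, Btk (0.08 ± 0.03), was higher at an unadjusted p under 0.05 in the mean 5xFAD difference. The share of all genes in this direction was 3.56%, and a count of 1 was not tested against it. The Src-family kinase Lyn, which phosphorylates ITAMs, had group means of 7.24 to 7.34. Fgr (1.58 to 1.69) and the DAP10 adaptor Hcst (1.45 to 1.55) were not tested because of low values. Of 16 scaffolds and effectors tested 1, the GTPase Rac2 (0.15 ± 0.05), was higher by the unadjusted p, beside the same 3.56% of all genes. The scaffolds Blnk, Lcp2 and Lat2 and the paralogs Plcg1 and Vav2 were tested and were not under an unadjusted p of 0.05 there. Vav3 (-0.24) and Prkcd, a marker of thalamic neurons as well as a kinase of the chain (-0.52), were lower in 5EL than in EL by the unadjusted p (adjusted p = 0.63). Zap70, the paralog of Syk in T cells, was at 8.08 to 8.42 while the T cell marker Cd3e was at 1.28 to 1.37. Of 4 genes tested that were listed as proteases or ligands of Trem2, 3 were higher in the mean difference by the unadjusted p (limma adjusted p = 0.693). They were its ligand Clu (0.13 ± 0.05), the lipase Lpl (0.36 ± 0.10) and the sheddase Adam10 (0.09 ± 0.04), beside the same 3.56% of all genes. Whether Lpl acts on Trem2 was not tested. Clec7a and Lpl are also among the genes of disease-associated microglia counted above. In 5EL against EL alone Card9 (0.13) was added, and in 5ELKO against ELKO alone Gab2 (0.18), both scaffold or effector genes.

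**Figure D5:**
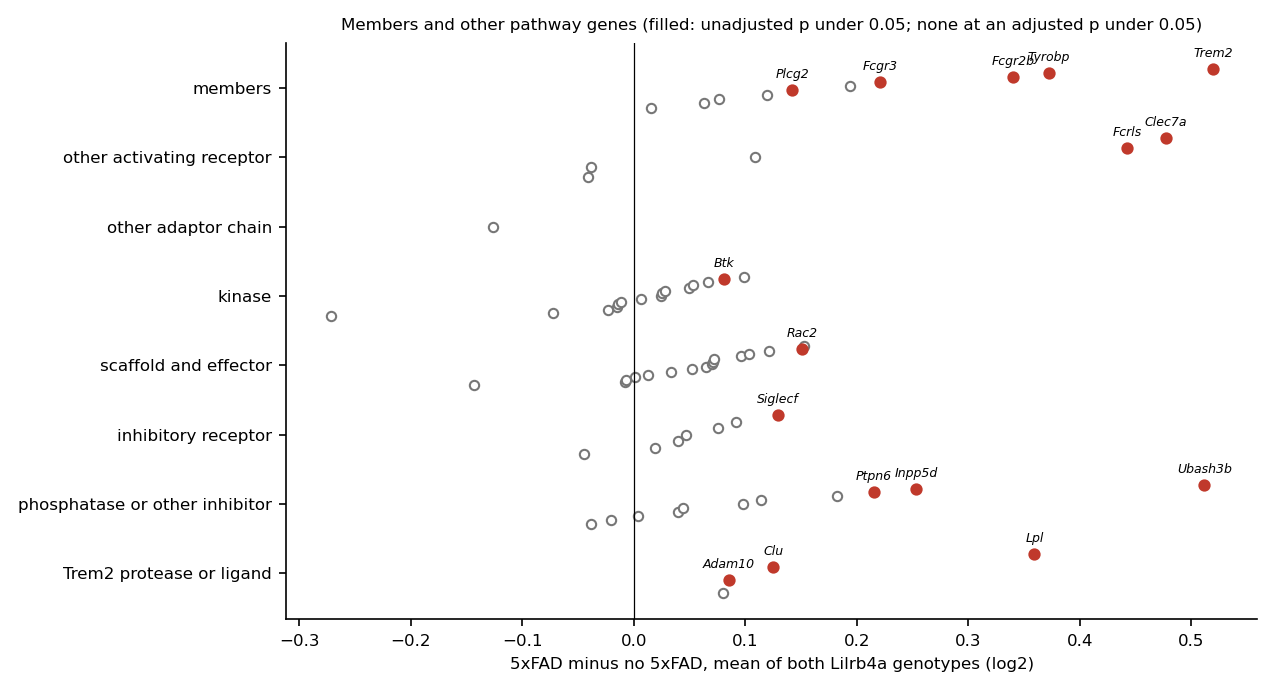
Mean 5xFAD difference over both Lilrb4a genotypes (x axis, log2 units) for the 10 members and the 59 other pathway genes tested, by role; filled points are at an unadjusted p under 0.05. Trem2 at 0.52, Ubash3b at 0.51 and Clec7a at 0.48 lie farthest to the right, and no point is at an adjusted p under 0.05.

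In 5ELKO against 5EL, 2 of 59 pathway genes were at an unadjusted p under 0.05, Oscar and Inppl1 (0.11), near the share of 2.49% over all genes, with a median of 0.01. In ELKO against EL 0 of 59 were, beside 2.35% of all genes, with a median of 0.0013. Limma called 0 of the 59 at an adjusted p under 0.05.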

How the data were processed

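Adapter trimming (Trimmomatic 0.39), alignment to the mouse build GRCm38 (HISAT2 2.2.1) and unstranded exon counting per gene name (featureCounts 2.0.3) were the authors' steps. They deposited log2 values of 29659 genes per library; the transform is not given in the sources used here and draws low genes together, so folds of low genes are understated and, with no counts in these values, the depth behind each is unknown. Members and lists were chosen with earlier results of these data known. Groups came from the labels. Differences were fitted with limma 3.58.1 (R 4.3.3, variance trend, Benjamini-Hochberg adjustment) on genes that reached 3.32 on the log2 scale in at least 3 of 15 libraries (15804 genes), or in 4 of 9 for 5ELKO against 5EL (15743 genes, these 2 groups). For single values, exact permutation tests were two-sided. The study lists 5EL and 5ELKO libraries under separately numbered samples drawn from mice; for EL and ELKO no source used here says so, and their spread may be technical. Genes were named by rule: all members, 20 genes chosen by name (1 is not reported here), pathway genes at an unadjusted p under 0.05 and the 3 genes most like 5 of the members; ratios were added later. Promoter windows are from RefSeq (GRCm38.p6), gene positions from GENCODE M21. The fits were tested on simulated data. Deviations from group means of EL and ELKO libraries with the same number were correlated (0.45, 0.33 and 0.74), so these libraries may not be independent. The main fits and the exact tests did not pair them, and the source of this correlation is not given.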

Additional observations from a re-analysis of the deposited data

Results flagged for a closer look

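In 5EL, Vav1 in replicate 2 (5.93) lay apart from the other 4 libraries (6.17 to 6.26), with a gap of 0.727 of the range. The choroid plexus average of 5EL replicate 1 (8.27 against 6.002 to 6.43) lay apart by 0.810 of the range. These were 2 of 46 checks of 5EL and 5ELKO groups, and chance gives about 1 in 20.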

How the results depend on the processing

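No member reached an adjusted p under 0.05 under any alternative run. At an unadjusted p under 0.05, the count of higher members in 5EL against EL (5) was 3 after median centring or quantile normalization, 2 with a replicate block and 0 with either microglia covariate or without the 4 libraries that stood apart, an alternative chosen after seeing the data; with either covariate 1 member (Fcgr1) was lower. In 5ELKO against ELKO (2) it was 1 with a replicate block or quantile normalization and 0 with either covariate or without those libraries. In the mean 5xFAD difference (5) it was 3 with a replicate block or quantile normalization, 2 without those libraries and 0 with either covariate, where Fcgr1 was lower by the homeostatic one (-0.17). In ELKO against EL the homeostatic covariate put 1 member (Tyrobp) higher. With the pan-microglia covariate the sign turned for Trem2 in 5EL against EL (-0.018) and for Fcgr3 (-0.013) and Tyrobp (-0.012) in the mean. With each library left out in turn these counts ran from 1 to 6, 0 to 3 and 3 to 7, and 0 to 1 lower in ELKO against EL. Exact tests under 0.05 ran from 0 to 4 members in 5EL against EL (1 with all libraries). In 5ELKO against ELKO they ran from 0 to 0 (1), where fewer libraries cannot reach 0.05. Relative to the homeostatic list they ran from 0 to 3 in 5EL against EL (0). The pan-microglia list gave 2 in 5EL against EL, Fcgr1 and Cd33, both lower. The replicate block changed no call of the deletion comparisons. Same-numbered libraries of the other pairs of groups did not all deviate together (correlations from -0.32 to 0.23), so their numbers do not pair them. The block joined them all the same, so the counts with it do not correct for a known pairing. The causes of these changes were not tested.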
